A study of Homo sapiens with 2 samples.

Results

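The spliceosomal small nuclear RNAs (snRNAs) and small Cajal body RNAs (scaRNAs) that carried deletion sites in an anti-SF3A1 crosslinking and immunoprecipitation experiment were RNU2-2, RNVU1-7, RNVU1-19, RNU5D-1, SCARNA2 and SCARNA9. They were chosen because at least 1 listed site lies inside their RefSeq gene body, so the presence of a site in them is a description and not a finding. Together they held 8 of the 2960 sites in the deposited list, 6 in the snRNA genes and 2 in the scaRNA genes. The 2 libraries came from C4-2B, a prostate cancer epithelial line of the LNCaP lineage, here a derivative made ready for CRISPR interference (gene silencing by a catalytically inactive Cas9). Cells were collected 48 h after seeding and given a 254 nm ultraviolet dose of 400 mJ/cm2 before SF3A1 was precipitated with 2 µg of antibody. The labels give 1 group without a control or input group, and the list pools both libraries, so no value has an error between replicates and no comparison between conditions was possible. As a check of the labelled cell type, marker genes were looked at, beside 10.1% of all protein-coding genes with a site on either strand. The prostate luminal marker genes KLK3 (4 sites), KLK2, FOLH1 and TMPRSS2 (1 each) held sites, and HOXB13 held none. Of 5 genes of other cell types (ALB, PTPRC, COL1A1, CHGA and KRT5), 0 held one. With only 5 genes, a count of 0 cannot be told from a share of 10.1%, so nothing is read from it.

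SF3A1 is a subunit of SF3A, which joins SF3B on the U2 small nuclear ribonucleoprotein (snRNP), the particle that recognises the branch point of an intron. Its ubiquitin-like domain is also known to bind stem-loop 4, the last hairpin of U1 snRNA, which ties the U2 particle to the U1 particle on the 5′ splice site. U5 snRNA holds the exon ends in the catalytic spliceosome, and scaRNAs guide the modification of snRNAs in Cajal bodies. Each listed site is a single base at which some or all of the tags carry a deletion, a trace that a crosslinked amino acid can leave. Whether the deletion at a given site came from a crosslink was not tested, because there was no input or control group. This holds also for sites deleted in every tag. For every site the list gives the number of tags over the base and the number with the deletion, and the ratio of these is called the deleted share. The 95% intervals below are exact Clopper-Pearson intervals and cover counting error only.

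The sites lay at different places in each RNA. Positions were counted from the 5′ end along the strand of the site, since the gene table used gives no strand for these genes, and build hg38 coordinates are 1-based. RNU2-2 occupies 191 nt of chromosome 11 (62841619 to 62841809), and its sites were at 62841724, 62841718 and 62841680 on the minus strand, which are positions 86, 92 and 130. RNVU1-7 occupies 164 nt of chromosome 1 (148038753 to 148038916), with its site at 148038768 on the minus strand, position 149. RNVU1-19 occupies 167 nt of chromosome 1 (120850819 to 120850985), with its site at 120850832 on the minus strand, position 154. RNU5D-1 occupies 102 nt of chromosome 1 (44731069 to 44731170), with its site at 44731091 on the minus strand, position 80. The scaRNA sites lay on the plus strand. SCARNA2 occupies 420 nt of chromosome 1 (109100193 to 109100612), with its site at 109100575, position 383, and SCARNA9 occupies 353 nt of chromosome 11 (93721514 to 93721866), with its site at 93721614, position 101. The map of the RNAs shows that 7 of the 8 sites lay between 45.0% and 92.2% of the length of their RNA, and the SCARNA9 site lay at 28.6%.

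**Figure D1:**
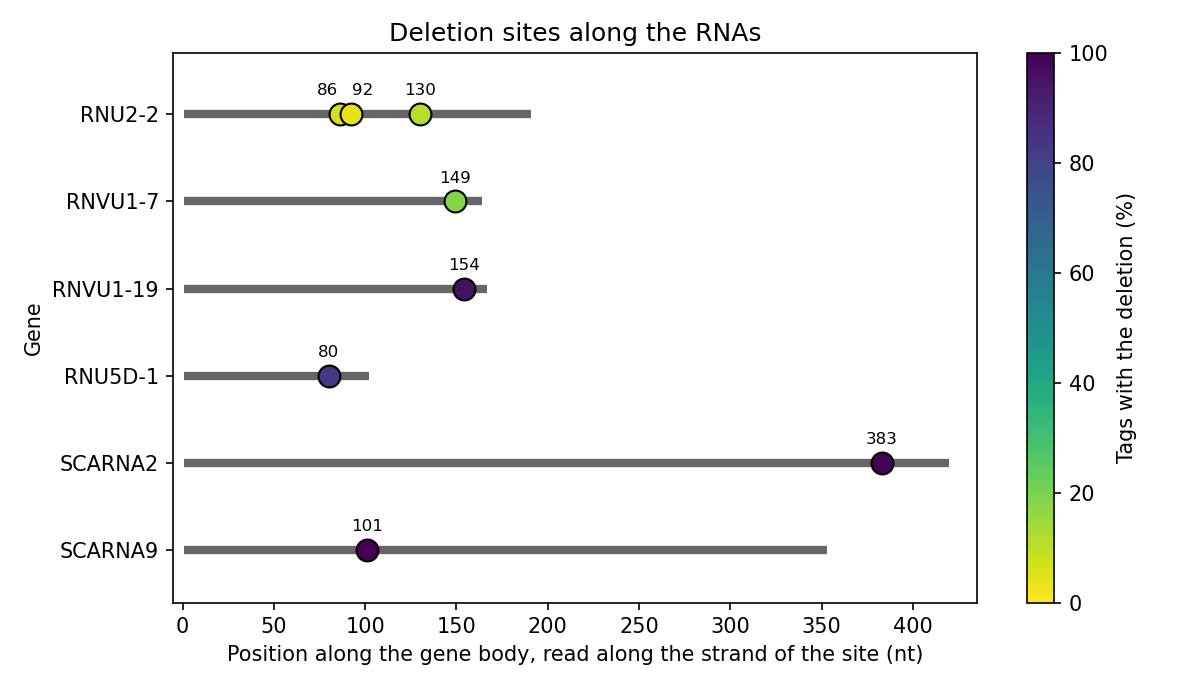
Each bar is a gene body drawn to scale, with position in nt read along the strand of the site, and each circle is a listed site coloured by the percentage of tags with the deletion. RNU2-2 has 3 sites, at 86, 92 and 130, with low shares, and each of the other genes has 1.

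U2 snRNA, the RNA of the particle to which SF3A1 belongs, held 3 of the 6 snRNA sites, all placed in RNU2-2. There are 3 annotated U2 genes, and how tags were placed among them is not known. The shares below therefore do not belong securely to RNU2-2. At position 86 of RNU2-2, 51 of 798 tags carried the deletion, or 6.39% (95% interval 4.80 to 8.32). At position 92, only 6 nt further, 33 of 811 tags did, or 4.07% (2.82 to 5.67). The intervals of these neighbouring sites overlapped, and the difference between their shares was not tested. At position 130 the deletion was in 13 of 118 tags, or 11% (6.0 to 18.1), an interval that overlapped that of position 86 and lay above that of position 92. No listed site had fewer than 13 deleted tags, so a listed site with 118 tags could not show a share as low as those at positions 86 and 92. Nothing is read from this order. Coverage at position 92 was 6.87 times that at position 130, 38 nt further toward the 3′ end. In the textbook fold of U2, numbered from the same 5′ end, positions 86 and 92 fall in the single-stranded stretch that follows stem-loop IIb and leads to the Sm site, the sequence on which the ring of Sm proteins closes. Position 130 falls in stem-loop III, on the other side of the Sm site. No site was listed in stem-loop I, in the stretch that pairs with the branch point, in stem-loop IIa or in stem-loop IV, which binds the U2-specific proteins SNRPA1 and SNRPB2. The list holds only positions that passed the authors' threshold, so tags over these elements are not excluded.

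The U1 sites lay close to the 3′ end of the RNA, the region that holds stem-loop 4. In RNVU1-7 the deletion was in 149 of 813 tags, or 18.3% (95% interval 15.7 to 21.2), at a base 15 nt from the annotated 3′ end. In RNVU1-19 it was in 70 of 73 tags, or 95.9% (88.5 to 99.1), 13 nt from the 3′ end. The shares of the copies did not overlap in their intervals, and RNVU1-7 had 11.1 times the tags and 2.13 times the deleted tags of RNVU1-19. RNVU1-7 has the same length as RNU1-1, the first of the standard U1 genes, and 13 of 21 U1 genes in the table are 164 nt long. On standard U1 of that length, position 149 is in the apical loop of stem-loop 4, the element contacted by the ubiquitin-like domain of SF3A1. RNVU1-19 is 3 nt longer. Its site matches position 154 of standard U1 if the added bases are at the 3′ end and position 151 if all of them precede the site, and both fall in stem-loop 4. Under either assumption the pair of U1 sites falls in the same hairpin but at different bases. The sequences of the copies were not aligned, so whether the bases differ is not known. Tags from near-identical U1 genes cannot be told apart by locus with certainty, so neither share belongs securely to its copy.

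At nearly equal coverage, the RNVU1-7 site had a larger deleted share than the U2 sites at positions 86 and 92. RNVU1-7 at position 149 was covered by 813 tags, RNU2-2 by 811 at position 92 and 798 at position 86, and these are places 23, 24 and 25 of all 2960 sites by coverage. The RNVU1-7 share was 2.87 times that at position 86 and 4.50 times that at position 92, and its interval lay above both. Its lower bound of 15.7% lay below the upper bound of 18.1% at position 130 of U2. Such a ratio compares deletion at bases of a pool of libraries, and the sequence around each base, which can affect deletion, was not read here. The other U1 site, in RNVU1-19, had a share of 95.9% at 73 tags. How tags were placed among the copies of U1 and U2 is not known, so these ratios hold for the listed sites and not for the RNAs.

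**Figure D2:**
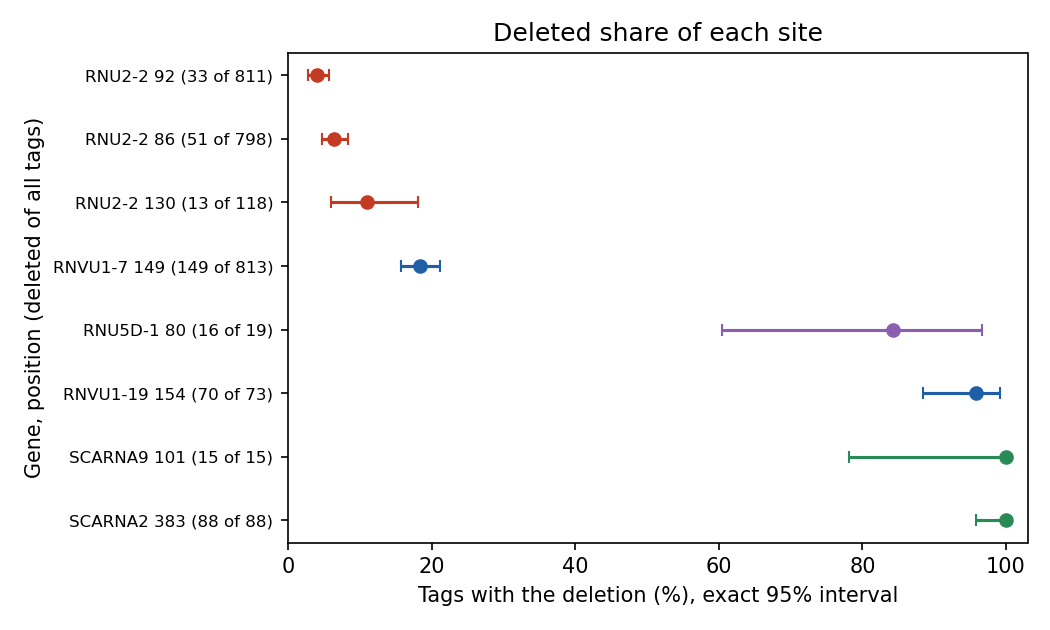
Points give the percentage of tags with the deletion at each of the 8 sites and bars the exact 95% interval, with deleted and all tags beside each name. The 3 U2 sites and the RNVU1-7 site lie between 4.07% and 18.3%, and the other 4 sites between 84.2% and 100%.

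The U5 site was thinly covered. At position 80 of RNU5D-1, 16 of 19 tags carried the deletion, or 84.2% (95% interval 60.4 to 96.6). This interval overlapped that of RNVU1-19 and lay above those of RNVU1-7 and of all 3 U2 sites. No listed site had fewer than 13 deleted tags, which is 68.4% of 19 tags. The place of the U5 share above the RNVU1-7 and U2 shares was thus fixed by its coverage, and nothing is read from it. RNU5D-1 is annotated at 102 nt, while the other 4 U5 genes in the table are 117 to 121 nt long. If the 5′ ends line up, position 80 lies past stem-loop 1, whose loop holds the exons, and shortly before the Sm site. The missing length was not located here, so this placement is uncertain.

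The scaRNA sites were deleted in every tag, as were 2243 of all 2960 listed sites (75.8%). SCARNA2 had the deletion in 88 of 88 tags (100%, 95% interval 95.9 to 100) and SCARNA9 in 15 of 15 (100%, 78.2 to 100). Both are guides for U2 itself. Their RefSeq aliases, mgU2-25/61 and mgU2-19/30, name positions 25 and 61 of U2 for SCARNA2 and positions 19 and 30 for SCARNA9, where box C/D guides direct 2′-O-methylation. They are the only 2 of 29 scaRNA genes whose alias is written in that form. All 4 guided positions are nearer the 5′ end of U2 than the deletion sites at 86, 92 and 130. The SCARNA2 site was 37 nt from the 3′ end of the guide RNA and the SCARNA9 site 252 nt. They were not assigned to a guide sequence, a C or D box or a Cajal body localisation element, because the sequences of these RNAs were not used here. Both genes are long for scaRNAs, which have a median length of 148 nt and a range of 125 to 421 nt: 1 scaRNA is longer than SCARNA2 and 2 are longer than SCARNA9. SCARNA9L, the 348 nt relative of SCARNA9 on the X chromosome, held no site.

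Sites inside host genes could come from the small RNA or from its host transcript. RNU2-2 lies at the 5′ end of the longest annotated body of WDR74, a ribosome assembly factor, on chromosome 11 (62832905 to 62841809). All 3 sites of the WDR74 body were the RNU2-2 sites, on the strand of WDR74. The outermost of the 2 WDR74 starts in the RefSeq promoter table is at 62839659, which leaves 1960 nt between it and the 3′ end of RNU2-2. SCARNA9 lies inside CEP295, a centriole protein gene transcribed on the plus strand (93661682 to 93730358). CEP295 held 1 further site, at 93678861, with the deletion in 18 of 18 tags and 42753 nt from the SCARNA9 site. The sites of the other 4 members lay in no other annotated gene body. The nearest listed site outside the 6 RNAs was 11272 nt from a member site, so no member site belonged to a wider run of sites in flanking sequence.

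Most other genes of these families held no site. Of 42 snRNA genes, the 7SK gene and U7 included, 4 held a site: 2 of 21 for U1, 1 of 3 for U2 and 1 of 5 for U5. None was listed in the 2 U4 genes, the 5 U6 genes, or the single genes of U11, U12, U4atac, U6atac, U7 and 7SK, the last 2 of which are not spliceosomal. RNU2-1, the main U2 gene, and the 4 standard U1 genes RNU1-1, RNU1-2, RNU1-3 and RNU1-4 had no listed site either. How tags from such repeated genes were placed is not known, so a missing site does not mean that their RNA gave no tags. Among 2110 snRNA pseudogenes there was no site inside a body. Just outside the rule lay 1 site 10 nt beyond the end of the U6 pseudogene RNU6-308P, with the deletion in 24 of 24 tags. Of 29 scaRNA genes, 2 held a site. For reference, 3.87% of all annotated nuclear genes held a site on either strand, and 0.67% of miRNA, snoRNA, snRNA and scaRNA genes as 1 group. Nothing is read from these percentages, because the members were chosen by having a site.

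The snRNA members had lower deleted shares than most of the list, while the scaRNA members had its usual value of 100%. The median share of the 6 snRNA sites was 14.7%, beside 97.8% for the 14 snoRNA sites and 100% for all listed sites. A share under 40% was found at 4 of 6 snRNA sites, 4 of 14 snoRNA sites and 79 of all 2960 sites (2.67%). Positions 92 and 86 of U2 had the seventh and eighth lowest shares of the whole list. Summed over sites, the snRNA members held 2632 of 246057 tags (1.07%) and 332 of the 213787 deleted tags (0.155%). Of the 32270 tags without a deletion, 2300 (7.13%) lay over these 6 sites.

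Coverage sets how low a share can be listed. No site in the list had fewer than 13 deleted tags, and the U2 site at position 130 had exactly 13, a number shared by 66 sites. Taking 13 deleted tags as the floor, the lowest share would be 1.60% at 813 tags. For position 130 of U2, with 118 tags, it would be 11%, which is the share listed there. No site with at least 700 tags had fewer than 19 deleted tags, so the floor there may be higher. For RNVU1-19 with 73 tags the lowest share would be 17.8%, for RNU5D-1 with 19 tags 68.4%, and for SCARNA9 with 15 tags 86.7%. The high shares of RNU5D-1 and SCARNA9 therefore could not have been much lower and still have been listed, while those of RNVU1-19 and SCARNA2 could. Low shares were also more frequent among well covered sites outside the members. Among the 25 sites with at least 700 tags, a limit set after the values were seen, 13 had a share under 40% (52%), and these include the 3 sites in U1 and U2. Of the 22 of these sites outside the members, 10 had a share under 40% (45.5%), against 2.67% of all listed sites, and their median share was 99.2%. The part of coverage in the low shares of the U1 and U2 sites was not tested.

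**Figure D3:**
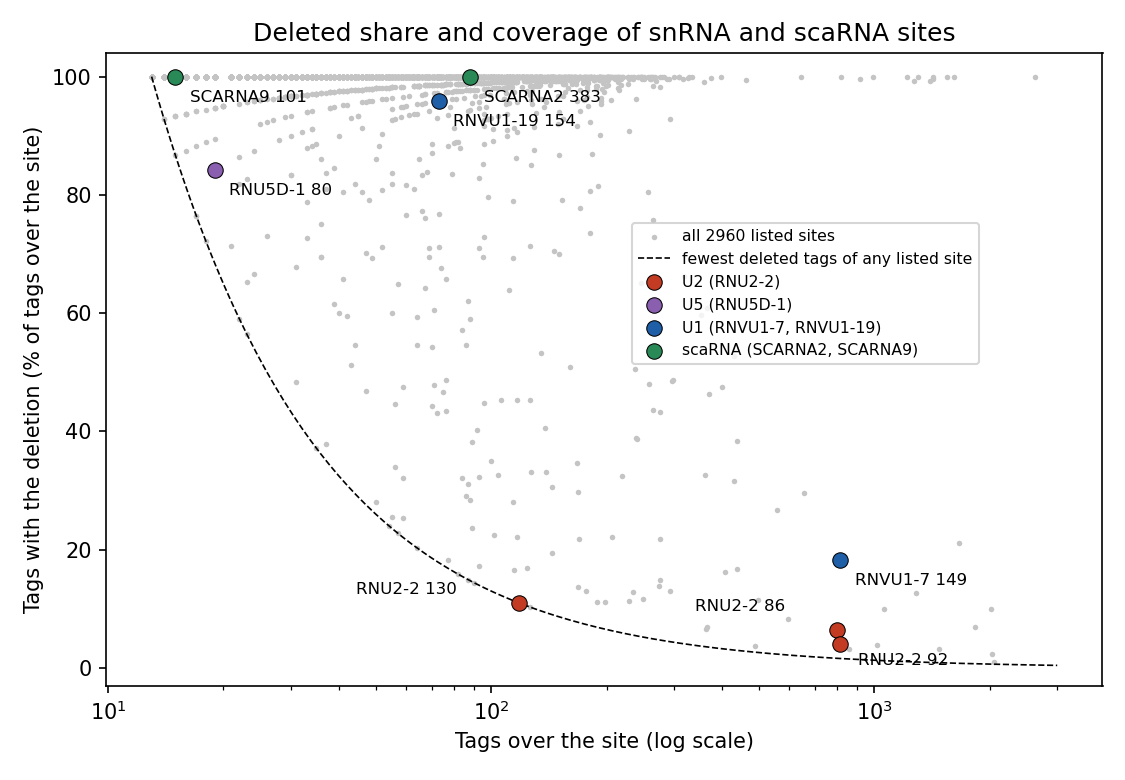
Each point is a listed site, with the tags over it on a log axis and the percentage of those tags with the deletion on the other axis. The dashed line is the share given by 13 deleted tags. The U2 site at position 130 lies on the line, the other U2 sites and the RNVU1-7 site lie at 798 to 813 tags, and the scaRNA sites lie at 100%.

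Protein genes that make and assemble snRNPs were also counted. Of 60 genes for snRNA transcription, 3′ end processing, export, Sm ring assembly and guide RNPs, 13 held a site on either strand (21.7%), beside 10.1% of all protein-coding genes. Counting only sites that lie in no other gene body, 12 of the 60 held one (20%), beside 8.95% of all protein-coding genes. Gene length and RNA abundance were not matched, so the difference is given as counts. The group of Cajal body and guide RNP proteins had 5 of 12 genes with a site. These were NOP58, a core protein of box C/D guide RNPs, and USPL1, a Cajal body protein, with 2 sites each, and NOP56, SNU13 and NOLC1 with 1 each. NOP56 and SNU13 are core proteins of the same box C/D particles. The larger NOP58 site, with 214 of 214 tags deleted, lies in SNORD11 inside that gene. Integrator and other 3′ end processing genes had 4 of 16, namely INTS1 (25 of 25 tags), INTS4 (60 of 60), INTS6 (76 of 76) and INTS10 (78 of 78). The INTS4 site also lies in the body of AAMDC. The snRNA transcription genes had 2 of 7, namely POU2F1 and SNAPC5, and the export and cap genes 1 of 5, NCBP1. In the Sm core and assembly group 1 of 20 held a site, SNRPB, a component of the Sm ring, with 36 of 40 tags deleted, or 90% (95% interval 76.3 to 97.2).

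Among 15 U2 snRNP protein genes, 6 held a site (40%), beside 10.1% of all protein-coding genes. The number was also 6 for sites that lie in no other gene body, beside 8.95% of all protein-coding genes. Gene length and RNA abundance were not matched here either, so the difference is given as counts. The 6 genes held 8 sites. Of these, 6 sites (75%) were deleted in every tag, beside 75.8% of the whole list. They were the 2 each in SF3B3 and DHX15 and those in SNRPA1 and U2SURP. The exceptions were SF3B1, the largest SF3B subunit, with 22 of 47 tags, or 46.8% (95% interval 32.1 to 61.9), and PHF5A, a small SF3B subunit, with 62 of 70, or 88.6% (78.7 to 94.9). The SF3B1 interval lay above that of each U2 snRNA site. No listed site had fewer than 13 deleted tags, so a site with 47 tags could not show a share as low as theirs. Nothing is read from this order.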

How the data were processed

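The deposited file is a list of single-base sites. Its name says that libraries were pooled, that unique tags and deletions were used, and that crosslink-induced mutation site analysis kept those within an FDR of 10 percent. The deposited count of deleted tags and the count of all tags in each site's name are whole numbers that the authors did not normalize. Per the submitters' processing notes, BWA 0.7.17, cutadapt, UMI-tools and SAMtools were used on genome build hg38. The sources used here do not say how each was set or how tags from repeated genes were placed.

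Sites were matched, on either strand, to 58956 nuclear gene bodies of RefSeq GRCh38.p14, of which 19866 are protein-coding. Deleted shares and exact 95% intervals were computed with scipy 1.17.1, pandas 2.3.3 and numpy 2.4.6 under Python 3.11.15. Gene matching and intervals were tested on simulated data. No test between groups was made. Depth per library is unknown. The members and gene lists were chosen with earlier results of these data known. Named genes were the members, genes overlapping their sites, and up to 4 genes of each list with the most sites; other genes were named after their values were seen. No RNA sequence of the members was used, and stem-loops were placed from textbook structures. Some of the marker genes are not reported here.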

Additional observations from a re-analysis of the deposited data

How the results depend on the processing

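The count of 8 sites was also 8 with gene bodies widened by 10 nt. It was 6 when sites within 50 nt were counted as 1, since the U2 sites merge, and 4 when only sites above the list's median of deleted tags were kept. The median share of the snRNA sites, 14.7%, was 8.70% over sites with at least 100 tags, 12.6% as summed deleted tags over summed tags, and 18.3% with the best covered site of each family. It rests on 6 sites with shares from 4.07% to 95.9%. Counts of 4 snRNA and 2 scaRNA genes did not move under their alternatives, and the assembly list had 12 genes with a site in no other gene, against 13. Wilson intervals can move only the bounds, as for RNU5D-1, where they were 62.4 to 94.5 against 60.4 to 96.6. The alternative limited to the strand of the gene was not run, because the table gives no strand for these genes. No paired analysis was possible because the list pools the libraries, and no library could be left out.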
